A study of Mus musculus with 6 samples.

Results

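The genes of the cytoplasmic ribosomal proteins were followed in the cochlea of Neu4 knockout and wild-type mice. They were chosen by name and biotype alone, without any measured value: protein-coding genes whose symbol begins with Rpl or Rps and a digit, together with Rplp0, Rplp1, Rplp2 and Rpsa, and without the ribosomal S6 kinases (Rps6k). The rule found 90 of the 30462 genes listed. Of these, 77 encode the core proteins, 46 of the large subunit and 31 of the small subunit, and 12 are paralogs, retrogenes or other forms. The remaining gene, Rps19bp1, encodes a protein that binds a ribosomal protein and is counted apart.

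RNA came from the cochlea, the coiled part of the inner ear that senses sound, at postnatal day 7. The series held 3 libraries labelled Neu4 knockout (KO 2, KO 4 and KO 5) and 3 labelled wild type (WT 3, WT 4 and WT 5). The Neu4 product is a sialidase, which cleaves terminal sialic acids off glycans. The labels give no strain, no sex and no account of how the allele was made, and do not say that the libraries came from separate animals. The p-values therefore measure the spread between these samples, which may be technical.

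A ribosome joins a large and a small subunit, each built from ribosomal RNA and a fixed set of proteins. The small subunit reads the messenger RNA, and the large subunit forms the peptide bond. Ribosomal protein mRNAs are among the most abundant in growing cells, and mTOR, a growth-sensing kinase, controls their translation through a run of pyrimidines at their 5′ end, the TOP motif. Mammalian genomes also hold many processed copies of these genes, made by reverse transcription of their mRNAs.

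Levels are given as FPKM, the fragments per kilobase of gene scaled to library depth. The kilobases here are those of all annotated exons of a gene together, so levels of different genes also depend on annotated length. KO 2 listed 994 FPKM for Rplp1, from 8266 fragments over 499 bases, and 67.2 FPKM for Rps24, from 7008 over 6256. The values imply 15170973 to 17192293 fragments per library. Neu4 was near the detection limit, at 0.0518, 0.102 and 0.0853 FPKM in KO 2, KO 4 and KO 5, against 0.0523, 0.1003 and 0.0810 FPKM in WT 3, WT 4 and WT 5. Its groups overlapped (exact two-sided permutation p = 0.8, the smallest p that 3 against 3 allows being 0.1), so its RNA does not check the labels. Markers of hair cells, supporting cells and strial marginal cells were detected in all libraries, with summed FPKM of 32.3 to 36.2 in knockout and 27.9 to 29.2 in wild type for 12 hair cell genes. Over all 14072 genes tested with limma, 47 passed a Benjamini-Hochberg adjusted p of 0.05, 18 higher (0.128%) and 29 lower (0.206%) in knockout.

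No core ribosomal protein gene passed the test for a difference between knockout and wild-type cochleas. Of the 76 core genes tested, 0 had an adjusted p under 0.05, where 0.334% of all genes did. At an unadjusted p under 0.05 the count was 1 (Rps29), against 17.6% of all genes (10.6% higher and 6.99% lower), and limma's voom on recovered fragments also called 0. The median log2 fold change, knockout over wild type, was 0.02 over 45 large subunit genes and 0.01 over 31 small subunit genes, and 0.02 over all genes tested. The median size of the log2 fold change, whatever its sign, was 0.0313 for core genes and 0.0879 for all genes. Because high expression lowers the spread, 740 other genes with a mean of at least 50 FPKM are a closer comparison, and theirs was 0.0619. Of those 740 genes, 21.2% had an unadjusted p under 0.05.

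The precision of these fold changes sets what could have been seen. The 95% interval lay wholly within a 1.2-fold change either way for 66 of the 76 core genes, and within 1.5-fold for all 76. In bulk RNA fewer cells of a type and less RNA per cell cannot be told apart.

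**Figure D1:**
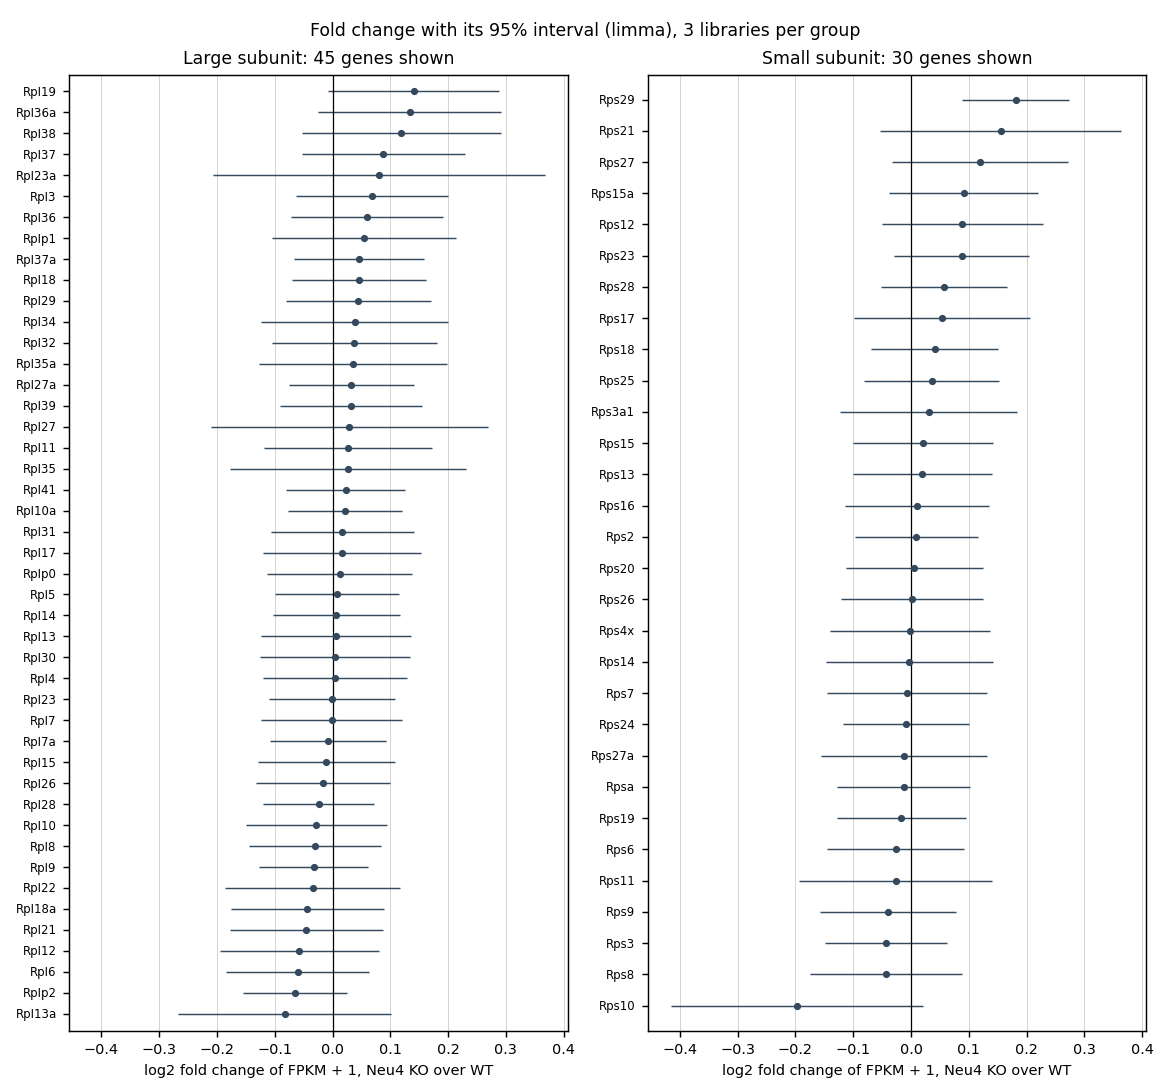
Log2 fold change (knockout over wild type, x axis) of each tested core gene but 1 (rows, sorted within each subunit), with its 95% interval from limma. Most points lie near 0, between -0.20 for Rps10 and 0.18 for Rps29, and the interval of Rps29 alone does not cover 0.

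The mean levels of the core genes ran from 0.796 to 1017 FPKM. Their mean over the 6 libraries was highest for the large subunit stalk proteins Rplp0 and Rplp1, which form the flexible arm that recruits elongation factors. Rplp0 had 1005, 1003 and 1056 FPKM in KO 2, KO 4 and KO 5, against 1009.7, 988 and 1040.1 FPKM in WT 3, WT 4 and WT 5. Rplp1 had 994, 989 and 1109 FPKM in knockout and 997, 947 and 1033 FPKM in wild type. KO 5 was the highest library for both genes and WT 4 the lowest, so the groups overlapped. Rpl4, a large subunit protein that lines the exit tunnel of the new peptide, followed at 515 ± 18.7 FPKM in knockout and 514 ± 21.01 FPKM in wild type (SD, n = 3 each).

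In the small subunit Rps3a1, Rps2 and Rps15 had the highest mean FPKM. Rps3a1 had 719.8, 711 and 802 FPKM in KO 2, KO 4 and KO 5, and 727, 699 and 757 FPKM in WT 3, WT 4 and WT 5. Rps2, at the entry of the mRNA channel, averaged 604 ± 10.2 FPKM in knockout and 601 ± 12.4 FPKM in wild type. Rps15 averaged 577 ± 24.6 FPKM in knockout and 568 ± 13.5 FPKM in wild type (SD, n = 3 each). None of these groups stood apart, and the fold changes of the 6 genes with the highest mean FPKM lay between 0.00 and 0.05 on the log2 scale.

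Members known from signalling or from a mouse mutant did not pass the test either. Rps6, the substrate of the S6 kinases, averaged 321 ± 11.1 FPKM in knockout and 327 ± 13.2 FPKM in wild type. Rpl5 and Rpl11, which bind Mdm2 and so tie ribosome assembly to p53, averaged 119 ± 4.28 and 109 ± 9.06 FPKM in knockout, against 118 ± 4.07 and 107 ± 2.21 FPKM in wild type. Rpl38, mutated in the Tail-short mouse with its skeletal and ear defects, had 128, 127 and 141 FPKM in knockout and 111, 122 and 132 FPKM in wild type. Its groups overlapped, and its log2 fold change of 0.12 ± 0.0733 (SE) did not pass the test (limma, adjusted p = 0.440).

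At the low end, 7 core genes averaged under 25 FPKM and 3 under 10 FPKM, far below their partners. Rpl24, mutated in the Belly spot and tail mouse, had 0.350, 0.860 and 1.92 FPKM in KO 2, KO 4 and KO 5, against 0.412, 0.508 and 0.729 FPKM in WT 3, WT 4 and WT 5. It rested on 6, 15 and 30 fragments in knockout and 7, 9 and 12 in wild type, and was not tested, since under 3 libraries reached 1 FPKM. Rps10, in the head of the small subunit, and Rpl13a, which in human monocytes leaves the ribosome to silence inflammatory mRNAs, averaged 1.82 and 4.67 FPKM over all libraries. The other low genes were Rpl23a, Rpl30, Rpl21 and Rpl35, at 9.64 to 24.4 FPKM in knockout and 10.2 to 21.4 FPKM in wild type. Their exon lengths were 847, 3020, 3400 and 1241 bases, for 468, 345, 480 and 369 coding bases. The part of annotated length in these levels was not tested.

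**Figure D2:**
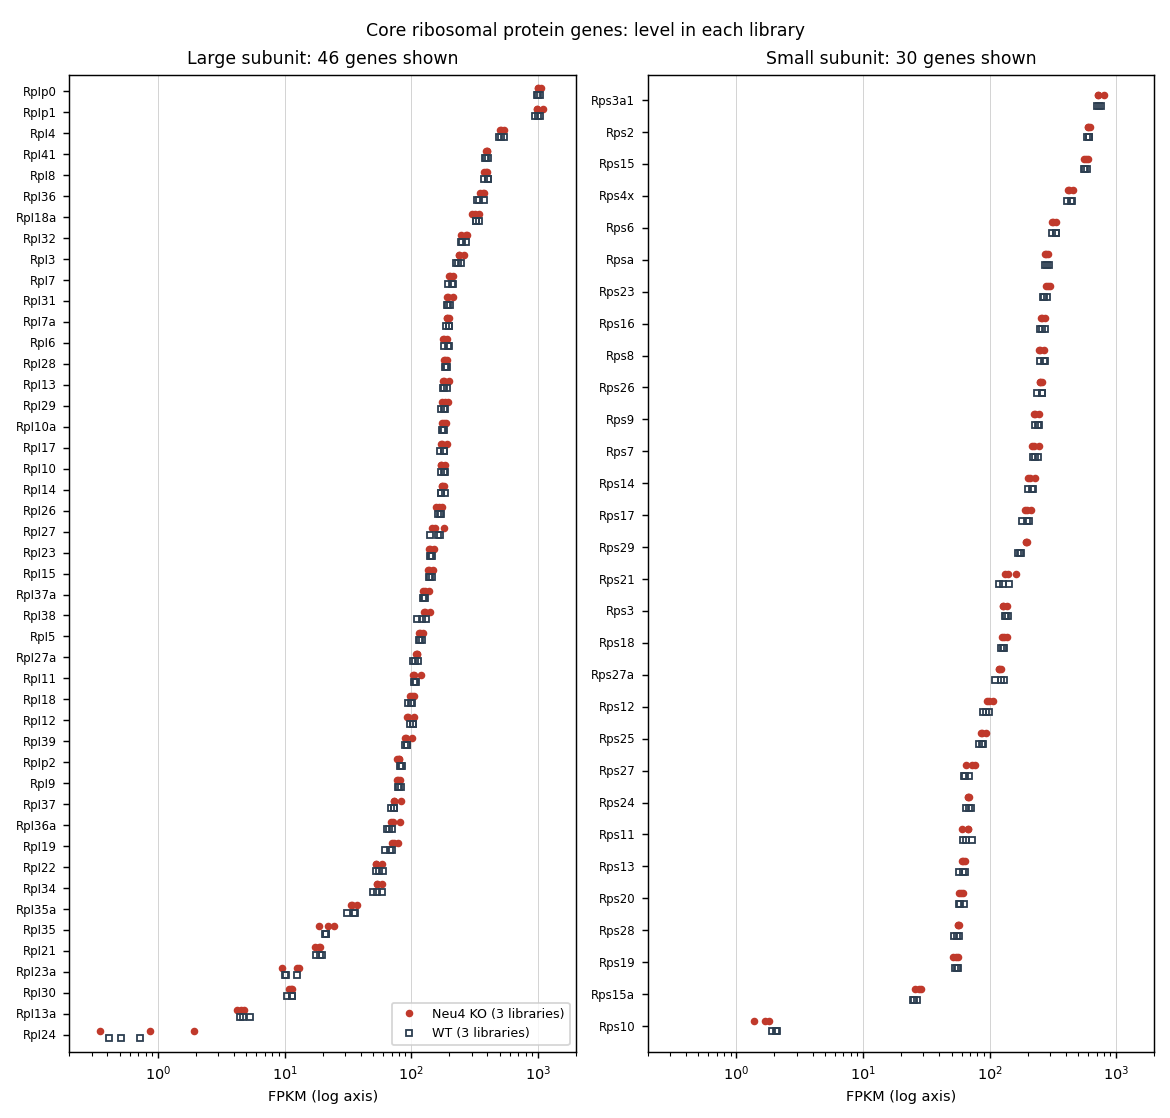
FPKM (x axis, log scale) of each core gene but 1 in each library, large subunit on the left and small subunit on the right, with knockout as filled circles above wild type as open squares. Rplp0 is highest at a mean of 1017 FPKM, and Rpl24, Rps10 and Rpl13a lie under 10 FPKM in both groups.

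Fragments of the low genes could be shared with other loci, and so could those of many core genes at higher levels. In the GENCODE M21 annotation the exons of 4 core genes are overlapped on the same strand by a gene other than a small RNA. They are Rpl24, Rps10 and Rpl13a, the 3 lowest, and Rpl19, at a mean of 70.6 FPKM. On the opposite strand 18 core genes are overlapped, 17 of them not among those 4, and 25 hold a small RNA gene on the same strand, 23 of them not among the 4. No source used here says how the counting treated such fragments or whether it used strand.

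Processed copies are the other source of shared sequence. When the coding sequence of each core gene was cut into all windows of 75 bases, 23 genes had every window in a transcript of some other locus, 59 had at least 50% of them, and 3 had none, among them Rps3 and Rpl41. Rps6, at a mean of 324 FPKM, was among the 23, while Rpl13a, at 4.67 FPKM, had 12.1% of its windows at other loci. That share leaves out overlapping genes, and 97.4% of the Rpl13a windows occur in Gm45713, which overlaps it on the same strand and has no listed value. Rps2 shared windows with 40 other genes of the table, the most of any member. The mean level had a median of 215 FPKM for the 18 genes with fewer shared windows and 129 FPKM for the 59 with at least 50%. Spearman's rho between level and share was -0.17 across the 77 genes, a description across genes that share libraries and mapping.

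**Figure D3:**
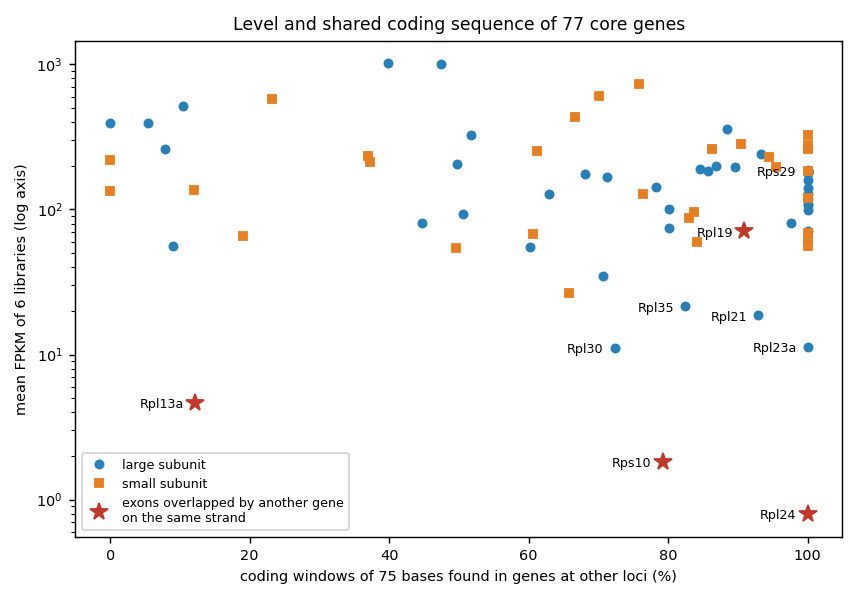
Mean FPKM over 6 libraries (y axis, log scale) against the percent of 75-base coding windows found at other loci (x axis), 1 point per core gene. Windows found only in genes that overlap the locus are not counted in that percent. Stars mark the 4 genes overlapped on the same strand, and Rpl13a, Rps10 and Rpl24 lie lowest at 4.67, 1.82 and 0.796 FPKM.

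Rps3 and Rpl41 had no shared window in their coding sequence. That search covered 729 of the 4483 exon bases of Rps3 and 138 of the 1168 of Rpl41, and the rest was not examined. The exons of Rps3 also overlap the small RNA gene Snord15b on the same strand. Rps3, at the mRNA entry of the small subunit, had 128, 129 and 137 FPKM in KO 2, KO 4 and KO 5 and 135, 132 and 139 FPKM in WT 3, WT 4 and WT 5. Rpl41 averaged 396 ± 5.06 FPKM in knockout and 389.9 ± 11.5 FPKM in wild type (SD, n = 3 each). Both overlapped between the groups, with log2 fold changes of -0.04 and 0.02.

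Rps29 had the smallest p of the core genes. It encodes a small zinc-binding protein of the small subunit and lies on the minus strand of chromosome 12 (chr12:69157722-69159186, GRCm38, ENSMUSG00000034892). It had 194, 195 and 197 FPKM in KO 2, KO 4 and KO 5, against 172, 168 and 177 FPKM in WT 3, WT 4 and WT 5. All knockout libraries were above all wild-type libraries, as for 15.2% of all genes tested. The log2 fold change was 0.18 ± 0.0391 (SE, 95% interval 0.09 to 0.27), with a limma p of 0.00221 that did not pass the adjustment over all genes (adjusted p = 0.116, and 0.0608 to 0.381 over 22 alternatives).

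All of the coding windows of Rps29 also occur in Gm14303, a processed pseudogene on chromosome 2 (chr2:172509521-172509691, GRCm38). The 168 coding bases of Rps29 are the same in both loci in the GENCODE M21 transcripts, so a fragment from them cannot be assigned to either locus by its sequence.

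Gm14303 had 50.2, 52.2 and 45.9 FPKM in KO 2, KO 4 and KO 5, against 35.8, 40.8 and 35.5 FPKM in WT 3, WT 4 and WT 5. Its groups also stood apart, with a log2 fold change of 0.39 ± 0.0707 (SE, limma adjusted p = 0.0814). Added to Rps29, the pair had 245, 248 and 242 FPKM in knockout and 208, 209 and 212 FPKM in wild type. The sum had a log2 fold change of 0.22 ± 0.0375 (SE) and missed the threshold too (limma, adjusted p = 0.0727). Both loci were higher in every knockout library, and since they share sequence their values are not independent of each other.

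The next 9 core genes by p were Rpl19, Rps10, Rpl36a, Rps27, Rps23, Rps21, Rplp2, Rps15a and Rpl38, none of which passed the test. Rpl19, in a bridge between the subunits, had 70.2, 72.8 and 79.3 FPKM in KO 2, KO 4 and KO 5, and 62.7, 70.7 and 68.0 FPKM in WT 3, WT 4 and WT 5. Rps21 had 133, 140.0 and 161 FPKM in knockout and 143, 119 and 127 FPKM in wild type. Both overlapped between the groups, since KO 2 lay under a wild-type library. Their log2 fold changes were 0.14 ± 0.0629 and 0.15 ± 0.0887 (SE), with limma adjusted p of 0.304 and 0.405.

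Rpl36a, X-linked, had 69.0, 72.3 and 81.2 FPKM in KO 2, KO 4 and KO 5, against 66.7, 64.7 and 70.8 FPKM in WT 3, WT 4 and WT 5. Rps23, at the decoding centre, had 288, 278 and 299 FPKM in knockout and 267, 264 and 284 FPKM in wild type. Rps15a had 27.8, 25.7 and 28.8 FPKM in knockout and 25.1, 25.001 and 26.9 FPKM in wild type. In each of these genes the highest wild-type library lay above the lowest knockout library, and the log2 fold changes of Rps23 and Rps15a were both 0.09. Of the 4 X-linked core genes, Rpl10, Rpl39 and Rps4x had log2 fold changes of -0.03, 0.03 and -0.00, and Rpl36a had 0.13.

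On the lower side, only Rps10 and Rplp2 had all knockout libraries under all wild-type libraries, 2 of 76 core genes against 9.54% of all genes tested. Rplp2, the second acidic stalk protein, had 76.7, 80.6 and 80.1 FPKM in KO 2, KO 4 and KO 5, against 84.0, 82.7 and 81.9 FPKM in WT 3, WT 4 and WT 5. The gap was small, with a log2 fold change of -0.07 ± 0.0382 (SE, limma adjusted p = 0.414). Rpl13a and Rpl6, the other genes with the lowest fold changes, had -0.08 ± 0.0786 and -0.06 ± 0.0528 (SE) and overlapped between the groups.

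Rps10 had the lowest fold change of the core genes. The gene (chr17:27630418-27636669, minus strand, GRCm38, ENSMUSG00000052146) had 1.38, 1.69 and 1.83 FPKM in KO 2, KO 4 and KO 5, against 2.10, 2.04 and 1.90 FPKM in WT 3, WT 4 and WT 5. The log2 fold change was -0.20 ± 0.0929 (SE, limma adjusted p = 0.322). It rested on 53 to 66 fragments per knockout library and 70 to 81 per wild-type library. Its processed copy Rps10-ps2 on chromosome 16 was listed far higher, at 188, 182 and 212 FPKM in knockout and 196, 199 and 200.2 FPKM in wild type. Those groups overlapped (log2 fold change -0.03 ± 0.0615 SE). In an alignment without gaps, 32 of 496 bases differ between Rps10 and Rps10-ps2. An inserted or lost base would shift those after it, so this count can overstate the divergence. Of the Rps10 windows of 75 bases, 73.4% occur exactly in Rps10-ps2. None of the first 120 bases differ, and they are shown here from the GENCODE M21 transcripts because both loci carry them.
Rps10: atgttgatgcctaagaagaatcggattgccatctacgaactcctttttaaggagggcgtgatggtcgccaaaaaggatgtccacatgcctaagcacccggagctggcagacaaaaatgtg
Rps10-ps2: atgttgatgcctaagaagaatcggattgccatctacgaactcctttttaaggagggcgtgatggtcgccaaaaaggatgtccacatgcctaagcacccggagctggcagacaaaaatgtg

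Fragments of Rps10 mRNA may be listed under either locus, and 88.9% of its windows also occur in an overlapping gene. The values above are therefore those of the locus and may miss part of the mRNA. The same holds for Rpl24, whose windows all occur elsewhere, and 80.6% of them in the overlapping gene Gm28037 too. With Gm12254 and Gm9385, processed copies that each hold at least 50% of its windows, the sum for Rpl24 was 12.5, 13.0 and 15.1 FPKM in knockout and 11.2, 10.9 and 12.3 FPKM in wild type. Knockout was higher in all 3 libraries, and the difference did not pass the test (log2 fold change 0.22 ± 0.0787 SE, limma adjusted p = 0.225). In a further fit the 53 core genes that have such copies were summed with them, and the other core genes were left as listed. Over both kinds together, 0 were called and 53 of 77 were above 0, against 56.94% of all genes tested in that setting.

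The 12 paralogs and other forms gave 9 that could be tested, of which 0 were called. The 3 not tested were listed near or under 1 FPKM. Rpl3l, the striated muscle paralog of Rpl3, had 1.02, 0.216 and 0.722 FPKM in knockout and 1.03, 0.212 and 0.495 FPKM in wild type. Rpl36al had 0.416 to 1.32 FPKM over all libraries, and the retrogene Rps23rg1 had 0.0475 to 0.1705 FPKM in knockout and at most 0.0874 FPKM in wild type, with WT 4 listed at 0. The exons of Rpl36al are overlapped on the same strand by the protein-coding gene Gm49383. Of its coding windows 93.9% occur in an overlapping gene, and 92.8% of those of Rps23rg1 do. The low values of these 2 genes may therefore depend on how shared fragments were assigned.

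Among the tested forms only Rps18-ps5 had an unadjusted p under 0.05, 11.1% of them against 17.6% of all genes tested. This form, annotated as protein coding on chromosome 13, had 16.4, 17.6 and 16.4 FPKM in KO 2, KO 4 and KO 5, against 13.5, 12.3 and 15.9 FPKM in WT 3, WT 4 and WT 5. The groups did not overlap, as for 24.8% of all genes tested, 15.2% of them with knockout higher and 9.54% lower. Its log2 fold change was 0.27 ± 0.0879 (SE, limma adjusted p = 0.196), and 77.5% of its windows also occur at other loci. Its parent Rps18 had 130.4 ± 5.49 FPKM in knockout and 127 ± 3.88 FPKM in wild type (SD, n = 3 each), with overlapping groups.

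Rps27 has 2 relatives in the table that differ in how far they can be told from it. Rps27 (chr3:90212522-90213651, minus strand) encodes a zinc finger protein of the small subunit, and Rps27l (chr9:66946086-66949516, plus strand) is a paralog known as a p53 target. Rps27rt (chr9:114982366-114982739, minus strand) is a retrogene with all 252 coding bases the same as Rps27. Of those 252 bases, 76 differ in Rps27l, in an alignment without gaps to its longest coding sequence of 315 bases. This count too can overstate the divergence. The first 120 coding bases of Rps27 and Rps27l (GENCODE M21) are given here with the 28 that differ in capitals, as they show why fragments of this paralog can be assigned.
Rps27: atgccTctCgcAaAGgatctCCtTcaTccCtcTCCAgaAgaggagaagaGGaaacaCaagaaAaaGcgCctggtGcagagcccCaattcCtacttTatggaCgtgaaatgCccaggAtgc
Rps27l: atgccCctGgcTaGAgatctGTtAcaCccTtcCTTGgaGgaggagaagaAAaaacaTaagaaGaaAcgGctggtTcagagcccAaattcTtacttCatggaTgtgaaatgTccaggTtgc

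Rps27 had 65.4, 72.4 and 76.0 FPKM in KO 2, KO 4 and KO 5, against 63.8, 63.3 and 69.2 FPKM in WT 3, WT 4 and WT 5. Rps27l had 42.3, 41.4 and 44.7 FPKM in knockout and 44.0, 42.9 and 45.2 FPKM in wild type. Rps27rt had 68.8, 66.2 and 78.3 FPKM in knockout and 64.8, 68.4 and 71.1 FPKM in wild type. Each overlapped between the groups, and Rps27 had a log2 fold change of 0.12 ± 0.0649 (SE, limma adjusted p = 0.381). The ratio of Rps27l to Rps27 did not overlap. On the log2 scale that ratio was -0.62, -0.79 and -0.75 in knockout, against -0.52, -0.55 and -0.60 in wild type. The difference of -0.16 reached the smallest exact two-sided permutation p of 0.1 and had an adjusted p of 0.6 over the 9 paralog pairs.

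The other paralog pairs gave no smaller p. Rpl22l1, which in mice compensates for loss of Rpl22, had 9.29, 10.8 and 9.61 FPKM in knockout and 8.77, 10.3 and 9.56 FPKM in wild type, 18.0% of the level of Rpl22 in knockout and 16.9% in wild type. Rpl39l, a paralog best known from the testis, had 2.17, 1.49 and 1.03 FPKM in knockout and 1.75, 1.96 and 2.48 FPKM in wild type, on 13 to 33 fragments. Rpl7l1 averaged 27.8 ± 1.65 FPKM in knockout and 27.9 ± 0.967 FPKM in wild type, and Rpl9-ps6 averaged 89.9 ± 3.94 FPKM in knockout and 87.3 ± 1.24 FPKM in wild type (SD, n = 3 each). Rpl36a-ps1 and Rpl10-ps3 lay between 0.733 and 3.23 FPKM in all libraries. For all of these pairs the exact permutation p was at least 0.2. Rps19bp1, caught by the rule but no ribosomal protein, had 15.6, 16.5 and 15.8 FPKM in knockout and 16.3, 15.0 and 17.7 FPKM in wild type, with overlapping groups.

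**Figure D4:**
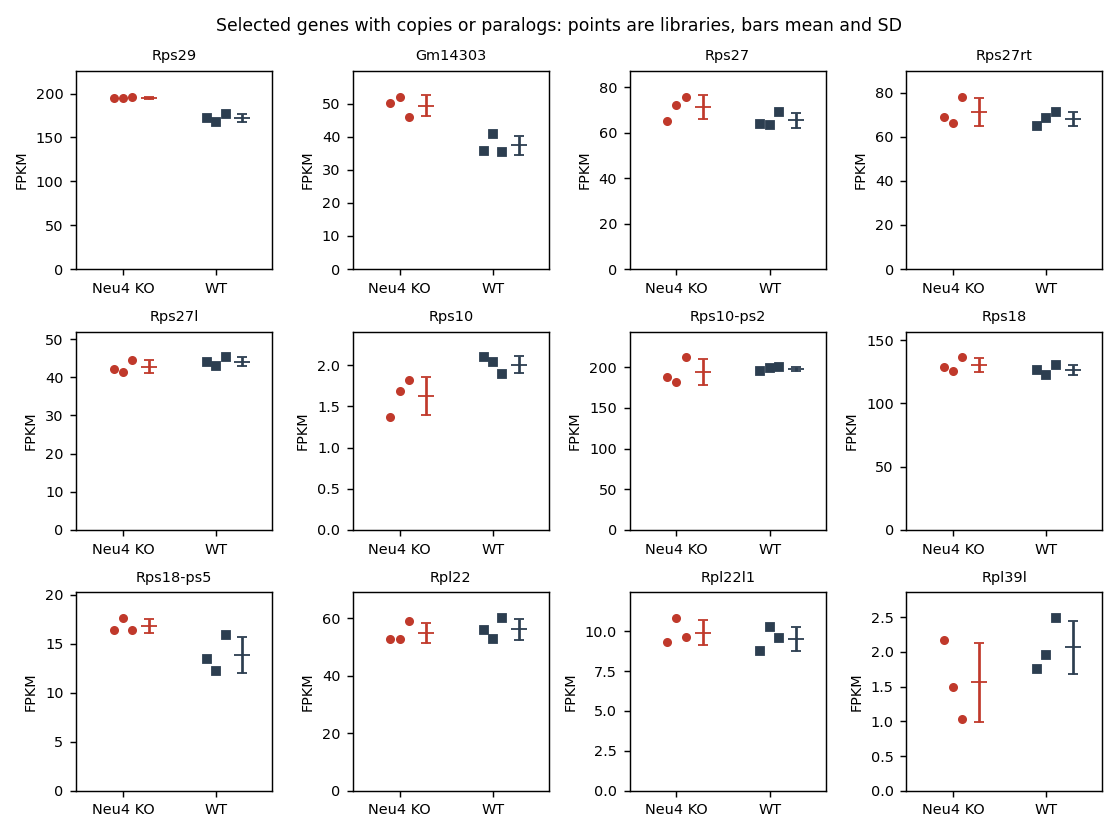
FPKM (y axis, from 0, scaled per panel) in the 3 knockout libraries (circles, left) and the 3 wild-type libraries (squares, right), with mean and SD beside them, for genes with copies or paralogs. Rps29, Gm14303 and Rps18-ps5 are higher in every knockout library, Rps10 is lower, and the other 8 panels overlap.

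The clearest structure in the core genes was between libraries and not between groups. Each gene's log2(FPKM + 1) was centred on its mean over 6 libraries, and the median was taken over the core genes. That median was -0.03, -0.03 and 0.07 in KO 2, KO 4 and KO 5, against -0.01, -0.05 and 0.05 in WT 3, WT 4 and WT 5. KO 5 was the highest library for 46 of the 76 genes and WT 5 for 23, while WT 4 was the lowest for 40. Within each group the highest and lowest libraries differed by more than the groups did.

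Both subunits followed the same course. The summed FPKM of large over small subunit genes was 1.34 in KO 2, KO 4 and KO 5, and 1.34, 1.35 and 1.34 in WT 3, WT 4 and WT 5. The core genes took 5.31%, 5.32% and 5.64% of the FPKM sum in KO 2, KO 4 and KO 5, against 5.43%, 5.14% and 5.20% in WT 3, WT 4 and WT 5. In fragments their share was 2.55%, 2.55% and 2.74% in knockout and 2.60%, 2.504% and 2.68% in wild type. The median within-group SD of a core gene was 0.0644 on the log2 scale, and 0.0321 once the core median of each library was taken away.

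**Figure D5:**
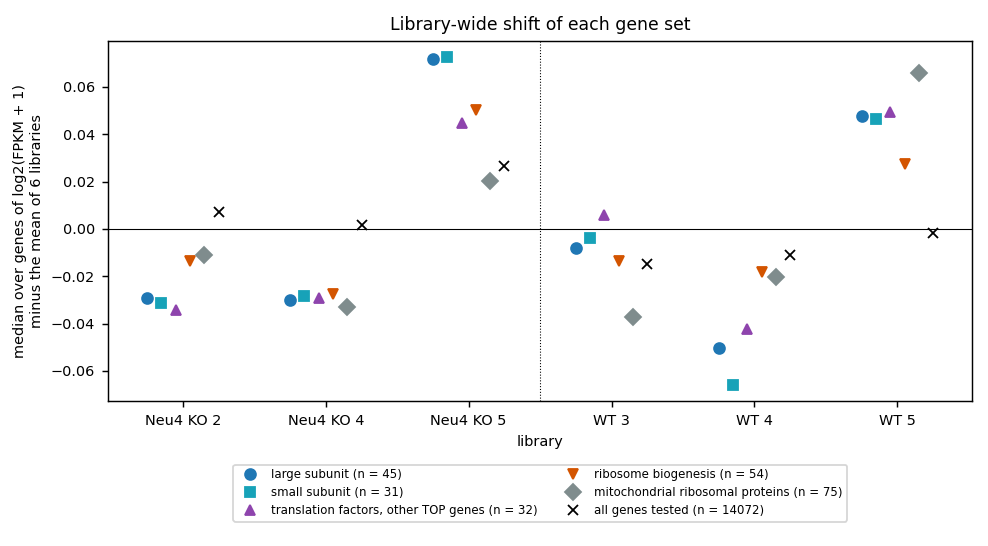
Median over each gene set of log2(FPKM + 1) minus the gene's 6-library mean (y axis) in each library (x axis, knockouts on the left, wild types on the right). Both subunits are highest in KO 5 and WT 5, at 0.07 and 0.05, and lowest in WT 4.

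Genes that work with the ribosome also differed between libraries. For 32 translation factors and other genes with TOP mRNAs, the centred median was -0.03, -0.03 and 0.04 in KO 2, KO 4 and KO 5, against 0.01, -0.04 and 0.05 in WT 3, WT 4 and WT 5. For 54 ribosome biogenesis genes it was -0.01, -0.03 and 0.05 in knockout, against -0.01, -0.02 and 0.03 in wild type. Both lists were highest in KO 5 and WT 5. Over all genes tested the median stayed between -0.01 and 0.03. The 740 other genes with a mean of at least 50 FPKM had -0.01, -0.01 and -0.00 in knockout and -0.02, -0.01 and 0.05 in wild type. Genes of the mitochondrial ribosome had -0.01, -0.03 and 0.02 in knockout and -0.04, -0.02 and 0.07 in wild type. In WT 5 these other genes were about as high as the core genes, while in KO 5 they were lower than the core genes. KO 5 and WT 5 were the least deep libraries, with 15170973 and 15983477 fragments, and the part of depth was not tested. WT 5 also had the highest FPKM sum, 298782, against 276486 to 282453 in the other libraries, and the second lowest core share of that sum.

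Markers of other tissues varied between the libraries as well. Their counts stand beside 56.9% of all genes tested above 0, and 10.6% higher and 6.99% lower at an unadjusted p under 0.05. The summed FPKM of 18 skeletal muscle genes was 264, 41.0 and 301 in KO 2, KO 4 and KO 5, against 322, 172 and 719 in WT 3, WT 4 and WT 5; 15 of them were tested, and 14 of those had a fold change below 0. The sum of 12 middle ear epithelium genes was 94.3, 102 and 171 in knockout, against 468, 820 and 475 in wild type. Of the 5 tested, 2 were above 0 and 3 below. Most of that contrast came from Bpifa1, at 0.0777, 8.34 and 93.3 FPKM in knockout and 336, 608 and 402 FPKM in wild type. Lyz2 had 79.7, 76.6 and 65.1 FPKM in knockout and 70.9, 69.3 and 62.4 FPKM in wild type. The sum of 12 neutrophil and marrow genes was 166, 168 and 95.4 in knockout, against 60.6, 100.3 and 37.6 in wild type, with 7 of 8 tested genes above 0. Of 7 tested adipocyte genes, 6 were lower and 1 higher at an unadjusted p under 0.05, with sums of 21.5 to 32.1 FPKM in knockout and 29.7 to 51.2 FPKM in wild type. Of 6 erythroid genes 2 were lower, with sums of 294.0 to 458 FPKM in knockout and 398 to 558 FPKM in wild type.

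Among markers of cochlear cells, all 8 strial marginal cell genes were above 0 and 6 had an unadjusted p under 0.05, with sums of 90.5 to 97.3 FPKM in knockout and 76.99 to 79.2 FPKM in wild type. One of them, Esrrb, a nuclear receptor, was called higher (8.64 ± 0.385 FPKM in knockout and 6.28 ± 0.208 FPKM in wild type, SD, n = 3 each, limma adjusted p = 0.0456). Of 8 supporting cell genes 3 were higher and 1 lower, and of 10 hair cell genes 2 were higher, at an unadjusted p under 0.05. Over all genes tested, 10.6% were higher and 6.99% lower at that threshold, and 56.9% were above 0. The part of cochlear cell markers in the levels of the ribosomal protein genes was not tested.

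The part of the neighbouring tissues in those levels was examined only through a covariate. That covariate was -0.355, -0.687 and 0.113 in KO 2, KO 4 and KO 5, against 0.244, 0.124 and 0.561 in WT 3, WT 4 and WT 5. Every knockout library lay below every wild-type library, so the covariate and genotype cannot be cleanly told apart in this fit. With the component of muscle and other neighbouring tissue in the fit, the median log2 fold change was 0.10 for the large and 0.11 for the small subunit, 72 of 76 core genes were above 0, 17 were higher at an unadjusted p under 0.05, and 0 were called. In that fit 61.0% of all genes were above 0, with a median of 0.04, 6.99% were higher at an unadjusted p under 0.05, and 7 were called.

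The sign of the small group difference followed the scaling. In the deposited values 46 of the 76 tested core genes were above 0, 60.5% against 56.9% of all genes tested and 44.1% of the 740 other genes with a mean of at least 50 FPKM. With median-ratio scaling 26 of 76 were above 0, against 48.43% of all genes tested in that setting. With each library rescaled to the same FPKM sum it was 63 of 77, against 63.57% of all genes. With library sums of all other genes it was 64 of 76, against 65.15%. Without KO 5 the count was 25 of 76, against 54.64% of all genes, and without WT 4 it was 31 of 76, against 56.18%. No direction is therefore given for the ribosomal protein genes as a group.

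Genes of ribosomal proteins that the naming rule misses did not pass the test either. Fau, whose product is cleaved to a small subunit protein, had 276, 266 and 285 FPKM in KO 2, KO 4 and KO 5 and 264, 264 and 275 FPKM in WT 3, WT 4 and WT 5. Rack1, a scaffold on the small subunit, averaged 127 ± 2.38 FPKM in knockout and 129 ± 3.29 FPKM in wild type (SD, n = 3 each).

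None of the lists around the ribosome held a called gene. Their counts at an unadjusted p under 0.05 stand beside 10.6% of all genes higher and 6.99% lower. Of the 32 translation and TOP genes, 2 were higher and 1 lower at an unadjusted p under 0.05 (median log2 fold change -0.00), with Eef1a1, the tRNA-delivering elongation factor, at 2239.8 ± 83.3 FPKM in knockout and 2202 ± 108 FPKM in wild type. Of the 54 biogenesis genes, 3 were higher and 2 lower (median 0.02). Ncl, the nucleolar protein nucleolin, had 43.0, 41.4 and 46.9 FPKM in knockout and 37.6, 38.5 and 42.0 FPKM in wild type, with overlapping groups and a limma adjusted p of 0.283. Of 75 tested genes of the mitochondrial ribosome, a separate set of proteins, 3 were higher and 2 lower (median -0.01).

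Regulators of ribosomal protein mRNA and of growth also gave no called gene. Of 27 regulators, among them mTOR and its partners, 5 were higher and 3 lower at an unadjusted p under 0.05, and 0 were called. The background of 10.6% higher and 6.99% lower holds for these lists too. Eif4ebp2, a translation repressor under mTOR control, averaged 41.0 ± 1.98 FPKM in knockout and 44.9 ± 0.145 FPKM in wild type (limma adjusted p = 0.215). Mxd4, a Myc antagonist, averaged 39.3 ± 1.63 FPKM in knockout and 36.0 ± 0.299 FPKM in wild type (limma adjusted p = 0.211). Of 15 tested p53 targets 3 were higher and 0 lower, and Cdkn1a, the cell cycle inhibitor p21, averaged 68.1 ± 5.32 FPKM in knockout and 65.8 ± 1.80 FPKM in wild type. Of 22 cell division genes 0 were higher and 4 lower, with Mcm3, a subunit of the replicative helicase, at 13.3 ± 0.338 FPKM in knockout and 15.8 ± 1.32 FPKM in wild type (limma adjusted p = 0.163).

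The promoters share features that the naming rule did not use. RefSeq start sites of GRCm38.p6 were found for 57 of the 77 core genes, and Rps29 was not among them. A run of C followed by at least 4 C or T bases, beginning within 10 bases of a start on the transcribed strand, occurred in 59.6% of these genes, against 33.3% of all genes with a start site. The windows below run from 10 bases before to 20 bases after the start, with such a run in capitals, for genes described above.
Rps27 (chr3:90213629-90213658, minus strand): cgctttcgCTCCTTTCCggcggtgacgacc
Rps10 (chr17:27635225-27635254, minus strand): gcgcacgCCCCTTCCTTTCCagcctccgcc
Rpl13a (chr7:45128726-45128755, minus strand): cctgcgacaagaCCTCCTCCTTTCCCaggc
Rplp2 (chr7:141447641-141447670, plus strand): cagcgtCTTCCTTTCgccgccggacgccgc
Rpl38 (chr11:114668570-114668599, plus strand): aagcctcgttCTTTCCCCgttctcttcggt
Rps15a (chr7:118116128-118116157, minus strand): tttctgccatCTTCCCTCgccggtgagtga
Rps3 (chr7:99483690-99483719, minus strand): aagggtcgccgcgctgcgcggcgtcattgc

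A run began within 10 bases of the start of Rpl38, at a mean of 127 FPKM, and of Rps10, at 1.82 FPKM. Among the highest genes by FPKM, none began there in Rplp0, Rpl4, Rps3a1 and Rps15, while a run did in Rps2, at a mean of 603 FPKM. Rps3 shows a window without a marked run, and no match says only that no such run begins within 10 bases of the start. In the 300 bases around the start, CCGGAAG, on either strand, occurred in 42.1% of the core genes and 9.93% of all genes. AAGATGG occurred in 15.8% of core genes and 7.28% of all genes, and TATAAA in 10.5% of core genes and 15.7% of all genes. The reverse complement of CCGGAAG can overlap a pyrimidine run, and AAGATGG can hold a start codon, so these matches are not separate counts of binding sites.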

How the data were processed

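Cochlear RNA at postnatal day 7 gave 6 libraries, 3 labelled Neu4 knockout and 3 wild type. The authors deposited 1 table of FPKM values with gene identifiers, biotypes and positions. The genome build was GRCm38 per the submitters' processing notes, and no source used here names the aligner, counter or strand setting. Of the values above 0, 98.3% were whole fragments times a library's step, within 0.01 fragment plus a relative 1e-06, using GENCODE M21 exon lengths. No 2 libraries held identical values (0 pairs).

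For genes reaching 1 FPKM in 3 or more libraries, limma (lmFit, then eBayes with a mean-variance trend) was run two-sided on log2(FPKM + 1). Its p-values were adjusted by the Benjamini-Hochberg method over all 14072 genes, with a threshold of 0.05. Fold changes on this scale understate those of low genes. Each paralog's log2 ratio to its parent was tested by exact permutation. Shared sequence was searched in GENCODE M21 transcripts in both orientations, and start sites came from RefSeq (GRCm38.p6). Raw fragment counts were recovered only for an alternative (voom, limma).

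The members and lists were chosen with earlier results of these data known. Named were Neu4, the 10 core genes with the smallest p, the 4 highest and 4 lowest fold changes, the 3 most and the 1 least abundant of each subunit, X-linked members, tested paralogs with their parents, and of each list called members or the 2 most abundant. Not all genes that the rule names are described, and some items are not reported here. Rps3, Rpl41, Rps6, Rpl5, Rpl11, Rpl21, Rpl23a, Rpl30, Rpl35, the untested paralogs and the processed copies were chosen after their values were seen. On simulated data for this comparison (5 runs, 14072 genes, 200 changed), limma recovered 38.0% of genes changed by 0.2 on the log2 scale and 100.0% of those changed by 0.585, with 5.37% false calls. The software was Python 3.11.15 with scipy 1.17.1, pandas 2.3.3, numpy 2.4.6 and matplotlib 3.10.9, and limma 3.58.1 in R 4.3.3.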

Additional observations from a re-analysis of the deposited data

How the results depend on the processing

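Across 22 alternatives, 0 core genes and 0 paralog forms were called in any, and 1 to 18 core genes had an unadjusted p under 0.05. The count over all genes, 47 as reported, depended far more on the processing. It was 103 with a filter of 5 FPKM, 19 without a filter, 30 with libraries rescaled to the same FPKM sum, 19 without the variance trend, 104 with library weights, 24 with sex as a covariate (read from Xist and Ddx3y, as the labels give none, with a male pattern in KO 2, WT 3 and WT 4), 7 with the neighbouring tissue component as a covariate, and 381 with voom on recovered fragments. Leaving out each library in turn gave 10 to 98, the 98 being without KO 5. The causes were not tested. The tissue component was lower in every knockout library than in any wild-type library, so it cannot be cleanly told apart from genotype. It also moved the median log2 fold change to 0.10 for the large and 0.11 for the small subunit. That of both subunits was below 0 with median-ratio scaling (-0.02 and -0.02), with sex as a covariate (-0.01 and -0.02), without KO 5 (-0.02 and -0.02) and without WT 4 (-0.02 and -0.02), each within the spread between libraries. Of 34 named members, up to 9 changed sign under a setting, and 0 of them were called in any.

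Knockouts and wild types share the numbers 4 and 5 only, and the labels do not say that a number marks a shared litter or day. With the replicate block, 22 genes were called over all genes, 0 of them core members, with median log2 fold changes of 0.03 for each subunit. Deviations of same-numbered libraries correlated at 0.14 and 0.15.

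Chosen after seeing the data were scaling to the sum of all other genes (31 called over all genes) and summing members with copies (47). Low members rest on few fragments, and the FPKM of Rpl24, Rps10 and Rpl13a may depend on how shared fragments were assigned.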
